A study of Homo sapiens with 3 samples.

Results

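H3K27ac peaks that lay at the ends of protein-coding genes, and at which no H3K4me3 peak was called, were described in KBM7, an established human leukaemia line with a near-haploid genome that came from chronic myeloid leukaemia. The cells are labelled wild type. The peaks were chosen from the chromatin immunoprecipitation sequencing (ChIP-seq) peak list of the H3K27ac library as the peaks on chromosomes 1 to 22 and X that overlapped, by at least 1 bp, a window of 1 kb either side of an end of a RefSeq protein-coding gene. Peaks that overlapped an H3K4me3 peak or a super-enhancer of the deposited table were left out. This gave 2691 of 96659 H3K27ac peaks (2.78%), from 18233 that touched a gene end, 3066 that also had no H3K4me3, and 375 of these that lay in super-enhancers. The peaks are called acetyl-only below. Both peak lists chose them, so their strength and their lack of H3K4me3 are descriptions, with no test. The series holds 3 libraries from cells grown in medium with 10% serum: H3K27ac, H3K4me3 and the input, with 1 library each. No spread between replicates could be measured, no conditions were compared, and all intervals are 95% intervals that cover counting error only. The check genes of the labelled myeloid line (PTPRC, CD34, KIT, MYB, RUNX1, SPI1, MPO, CD33, BCR and ABL1) all had both marks at an end, 10 of 10. Of all protein-coding genes 60.4% had both marks at an end, so the check is a weak one.

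Acetylation of lysine 27 of histone H3 is placed by p300 and CBP at active promoters and enhancers. Trimethylation of lysine 4 is placed by the SET1 and MLL complexes around transcription start sites, and CFP1 and other CXXC proteins bring these complexes to unmethylated CpG islands. Most promoters of broadly active genes lie in such islands. Many promoters of genes used in a few cell types do not, and enhancers carry H3K4me1 rather than H3K4me3 as a rule.

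Printed first are promoters that an acetyl-only peak marked, since the composition of the sequence was not used to choose the peaks. Each runs from 250 bases before to 50 after a start that RefSeq lists on GRCh38.p14, the patch release of the files' build hg38, and is given on the strand of the gene, with every CpG in capitals. The 3 here are the strongest by H3K27ac fold enrichment with a summit inside the printed window and no H3K4me3 peak within 1 kb of the start. They are those of CDK3, a cyclin-dependent kinase (chr17:76000605-76000904, plus strand), LOC124905230 (chrX:110175523-110175822, plus strand) and USHBP1 (chr19:17264696-17264995, minus strand). CDK3 held 7 CpG and USHBP1 held 6. The promoter of LOC124905230 held 0.
CDK3: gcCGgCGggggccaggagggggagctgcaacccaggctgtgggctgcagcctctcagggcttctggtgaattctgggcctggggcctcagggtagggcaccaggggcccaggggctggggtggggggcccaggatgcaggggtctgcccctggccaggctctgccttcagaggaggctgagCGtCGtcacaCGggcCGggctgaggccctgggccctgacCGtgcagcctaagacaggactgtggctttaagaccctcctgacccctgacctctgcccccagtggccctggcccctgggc
LOC124905230: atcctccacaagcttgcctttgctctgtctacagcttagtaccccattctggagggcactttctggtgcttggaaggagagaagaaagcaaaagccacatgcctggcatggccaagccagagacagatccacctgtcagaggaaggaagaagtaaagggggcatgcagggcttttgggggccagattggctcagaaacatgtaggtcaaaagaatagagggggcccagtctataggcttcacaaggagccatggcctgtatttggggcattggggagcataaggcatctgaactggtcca
USHBP1: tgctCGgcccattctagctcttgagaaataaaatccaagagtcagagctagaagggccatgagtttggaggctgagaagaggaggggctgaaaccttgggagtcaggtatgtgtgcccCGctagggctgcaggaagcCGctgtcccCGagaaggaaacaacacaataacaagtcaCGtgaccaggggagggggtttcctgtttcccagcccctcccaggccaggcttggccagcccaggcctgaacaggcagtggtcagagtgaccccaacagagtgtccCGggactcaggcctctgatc

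The next 3 were marked by the strongest peaks with the summit in the window that had H3K4me3 within 1 kb of the start. They belong to ZFYVE27, which encodes protrudin (chr10:97736878-97737177, plus strand, 31 CpG), ACSS2, the acetyl-CoA synthetase of nucleus and cytosol (chr20:34874739-34875038, plus strand, 4 CpG), and LOC124902325 (chr9:133061283-133061582, minus strand, 6 CpG).
ZFYVE27: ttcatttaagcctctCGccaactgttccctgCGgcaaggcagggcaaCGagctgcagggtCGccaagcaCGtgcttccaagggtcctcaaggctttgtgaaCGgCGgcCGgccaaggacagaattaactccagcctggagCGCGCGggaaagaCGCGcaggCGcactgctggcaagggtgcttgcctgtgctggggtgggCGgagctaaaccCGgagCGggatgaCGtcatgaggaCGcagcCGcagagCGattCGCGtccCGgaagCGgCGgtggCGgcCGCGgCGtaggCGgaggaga
ACSS2: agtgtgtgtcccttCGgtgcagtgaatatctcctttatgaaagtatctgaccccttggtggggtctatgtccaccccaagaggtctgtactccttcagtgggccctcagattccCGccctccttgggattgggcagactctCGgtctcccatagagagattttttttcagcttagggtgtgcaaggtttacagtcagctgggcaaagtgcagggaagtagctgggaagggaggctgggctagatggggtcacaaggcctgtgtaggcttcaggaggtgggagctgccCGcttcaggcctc
LOC124902325: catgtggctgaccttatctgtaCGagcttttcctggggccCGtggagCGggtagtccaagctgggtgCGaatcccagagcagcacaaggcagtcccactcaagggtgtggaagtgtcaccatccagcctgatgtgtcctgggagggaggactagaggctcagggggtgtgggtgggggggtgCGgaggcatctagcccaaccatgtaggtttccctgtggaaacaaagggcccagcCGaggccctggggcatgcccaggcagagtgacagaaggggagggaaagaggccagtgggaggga

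For contrast, SLBP, the histone mRNA binding protein, had both marks and the strongest H3K27ac peak of all those with H3K4me3 and a summit inside a listed promoter (fold 60.3). Its promoter (chr4:1712270-1712569, minus strand) held 42 CpG.
SLBP: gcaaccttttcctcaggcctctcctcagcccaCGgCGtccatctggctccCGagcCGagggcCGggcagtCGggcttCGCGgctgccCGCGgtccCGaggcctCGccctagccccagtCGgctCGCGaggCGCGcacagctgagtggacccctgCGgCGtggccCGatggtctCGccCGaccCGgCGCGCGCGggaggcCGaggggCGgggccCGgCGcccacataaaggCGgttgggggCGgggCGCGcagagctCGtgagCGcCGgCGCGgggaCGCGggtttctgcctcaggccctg

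Promoters of a pair of blood genes were added after their values had been seen. KLF1 is the master factor of red cell development (chr19:12887152-12887451, minus strand, 6 CpG), and AZU1 encodes azurocidin of neutrophil granules (chr19:827587-827886, plus strand, 9 CpG).
KLF1: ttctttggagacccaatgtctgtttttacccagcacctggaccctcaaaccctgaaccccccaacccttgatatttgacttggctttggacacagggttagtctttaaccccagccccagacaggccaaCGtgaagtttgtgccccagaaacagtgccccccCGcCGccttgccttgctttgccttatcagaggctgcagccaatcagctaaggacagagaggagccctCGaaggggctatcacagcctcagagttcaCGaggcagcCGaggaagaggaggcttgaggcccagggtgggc
AZU1: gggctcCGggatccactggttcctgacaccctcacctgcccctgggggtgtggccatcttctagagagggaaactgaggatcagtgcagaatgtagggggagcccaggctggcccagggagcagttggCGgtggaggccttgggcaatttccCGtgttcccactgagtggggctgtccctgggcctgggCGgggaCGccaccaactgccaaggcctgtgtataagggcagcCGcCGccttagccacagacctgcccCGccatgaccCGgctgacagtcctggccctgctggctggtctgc

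With the window of 1 kb, acetyl-only peaks lay at 3′ ends more often than at starts, and with a window of 2 kb the order turned, with 51.8% at starts. A gene start was taken as known where RefSeq's promoter table gave it, for 15812 of 19974 genes. Among the 2098 acetyl-only peaks that could be placed, 798 (38.0%, Wilson interval 36.0 to 40.1) were within 1 kb of a start and 1300 (62.0%) were at a 3′ end only. The remaining 593 were at ends of genes with no listed start. Starts on chromosome 8 were not used here, so all 81 acetyl-only peaks of that chromosome are among the 593, and the counts by position and the promoter values leave it out. The order was the other way round for H3K27ac peaks at gene ends that overlapped H3K4me3 and lay outside super-enhancers, with 11717 at starts and 553 at 3′ ends only. Counted by position, 798 of 12515 H3K27ac peaks at starts outside super-enhancers had no H3K4me3 (6.38%, Wilson interval 5.96 to 6.82). At 3′ ends 1300 of 1853 had none (70.2%, 68.0 to 72.2). A gene could hold several acetyl-only peaks, with 5 at the ends of RUNX3. Peaks are thus not independent points, and intervals over peaks may be too narrow.

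The difference between starts and 3′ ends was also seen among peaks of like strength. Among the weakest H3K27ac peaks, with a fold below 4, 403 of 989 at starts (40.7%, Wilson interval 37.7 to 43.8) and 727 of 828 at 3′ ends (87.8%, 85.4 to 89.9) had no H3K4me3. At a fold of 6 to 10 the shares were 6.51% of 1337 peaks at starts and 50.6% of 237 at 3′ ends. At a fold of 10 to 20 they were 0.658% of 3498 and 12.7% of 166. Above 20 only 2 of 5546 peaks at starts, those of CDK5RAP2 and MACC1, and 0 of 93 at 3′ ends lacked H3K4me3. Peaks at genes with no listed start are not in these counts. The strongest acetyl-only peak among them, at ANKRD13A, also lay just above this fold. A count of 0 of 93 allows a share of up to 3.97% by the Wilson interval. At every strength below 20 the share without H3K4me3 was thus higher at 3′ ends, and in both positions it was lower at each stronger step.

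As single peaks the acetyl-only sites were weak and narrow. Their median fold was 3.95 (interquartile range 3.42 to 4.74, lowest 2.005, highest 31.4), the median width was 307 bp (226 to 486), and the summit held a median of 16 fragments (14 to 21, lowest 10). In all, 1947 of 2691 (72.4%) had at most 20 fragments at the summit, and 60 reached a fold of 10. Starts and 3′ ends were alike in this, with median folds of 3.97 and 3.895 and median widths of 324 and 298.5 bp. The 14721 H3K27ac peaks at gene ends with H3K4me3 had a median fold of 18.3, a width of 1371 bp and 99 fragments. The 49277 H3K27ac peaks away from gene ends, without H3K4me3 and outside super-enhancers, had a median fold of 3.88, a width of 299 bp and 17 fragments. The values of the acetyl-only peaks lay close to these. The rule split the first comparison group off by H3K4me3, and stronger H3K27ac peaks overlap that mark more often, so the contrast is not independent of the choice.

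**Figure D1:**
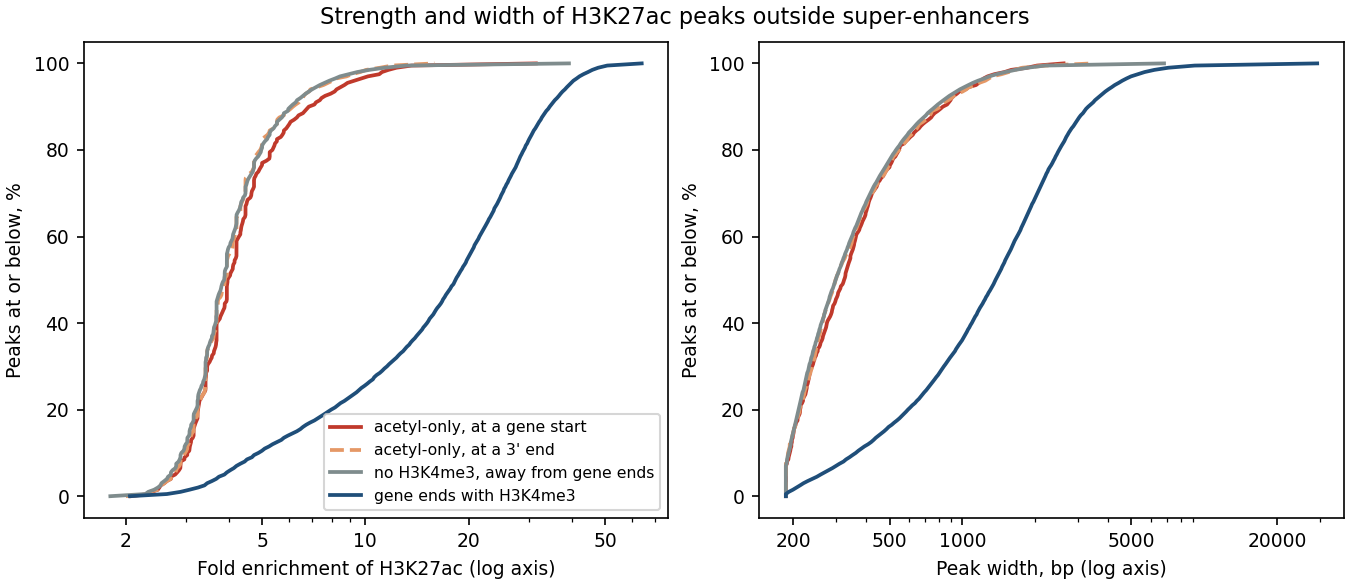
Share of H3K27ac peaks (vertical axis, %) at or below a fold enrichment (left, log axis) and a width in bp (right, log axis), for acetyl-only peaks at starts (n = 798) and at 3′ ends (n = 1300), for peaks without H3K4me3 away from gene ends (n = 49277) and for peaks at gene ends with H3K4me3 (n = 14721). The first 3 curves nearly coincide, with medians of 3.97, 3.895 and 3.88, and the last lies to the right with a median of 18.3.

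The edges of the rule fell among weak peaks. The lowest −log10 q among the members was 1.32, at SIPA1 and BCORL1 (fold 2.06, 16 fragments each), and the next was 1.49 at NR2E3 (fold 2.18, 15 fragments). Nearest to H3K4me3 without touching it were the peaks at CD48, a surface receptor of blood cells (5 bp away, fold 3.54), ASPHD2 (5 bp, fold 4.32) and PTDSS2 (8 bp, fold 3.68). Just outside, with an overlap of 1 or 2 bp, were peaks at MED26, a Mediator subunit (1 bp, fold 3.95), POLQ, a DNA polymerase of end joining (1 bp, fold 4.70), and PROSER2 (2 bp, fold 3.62). At the edge of the window a peak 1000 bp from an end of TTLL12 was kept (fold 3.42), and one 1001 bp from an end of RELA was not (fold 4.32). An absent peak says that the deposited list held none there. H3K4me3 below its threshold was not measured here.

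The acetyl-only peaks were often close to H3K4me3. The median distance to the nearest H3K4me3 peak was 2.27 kb (interquartile range 0.581 to 7.35, farthest 361 kb). Within 1 kb lay 918 of 2691 (34.1%, Wilson interval 32.4 to 35.9), and within 10 kb 2177 (80.9%). Of the H3K27ac peaks away from gene ends and without H3K4me3, 8883 of 49277 (18.0%) had it within 1 kb. Starts and 3′ ends differed in this distance. At starts 399 of 798 (interval 46.5 to 53.5%) had H3K4me3 within 1 kb, and 77 within 100 bp. At 3′ ends 328 of 1300 (25.2%, 22.9 to 27.7) had it within 1 kb, and 24 within 100 bp. So the label of gene ends without H3K4me3 holds for the interval of the peak, and for many of these genes it does not hold for the gene.

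**Figure D2:**
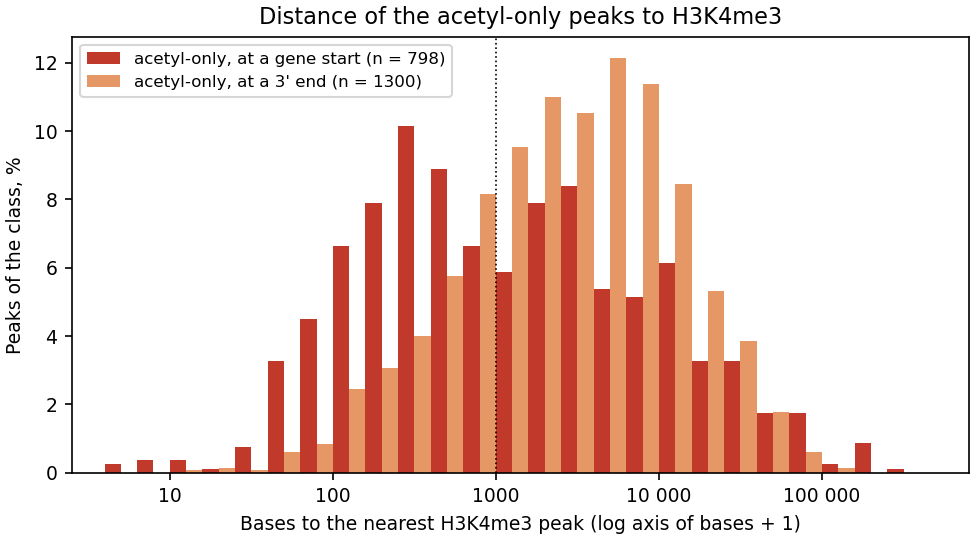
Distance in bases from each acetyl-only peak to the nearest H3K4me3 peak (horizontal axis, log scale), as a percentage of the 798 peaks at starts and of the 1300 at 3′ ends. The dotted line stands at 1 kb, with 399 of the peaks at starts and 328 of those at 3′ ends to its left.

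By gene the same held. An acetyl-only peak touched an end of 2197 of 19974 protein-coding genes (11.0%, the share of all genes against which the gene lists below are read). Of these 2197 genes 1700 (77.4%, Wilson interval 75.6 to 79.1) had H3K4me3 at an end through another interval, 203 (9.24%) had it inside the gene only, and 294 (13.4%, 12.02 to 14.9) had none at the ends or inside. Among all protein-coding genes 5280 (26.4%) had none.

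At starts with H3K4me3 within 1 kb the acetylation mostly flanked a methylated promoter on its upstream side. H3K4me3 covered the nearest start itself at 281 of these 399 peaks (70.4%, Wilson interval 65.8 to 74.7). The summit lay downstream of the start at only 83 (20.8%, 17.1 to 25.1), at a median of 804 bp from it on either side, and within 250 bp at 34 (8.52%). Since a peak over the start would have touched the H3K4me3 interval, the rule itself empties the centre, and its part in the difference between the sides was not tested. The neighbouring H3K4me3 peaks had a median fold of 51.3 (interquartile range 11.9 to 68.5), against 10.2 over the whole H3K4me3 list. That list is not limited to gene starts, and H3K4me3 peaks at starts in general were not set beside them.

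The strongest acetyl-only peaks at listed starts were mostly of this flanking kind. The highest was at CDK5RAP2, a centrosome protein (chromosome 9, 120580323 to 120581218). It had a fold of 31.4 and 147 fragments, its summit lay 409 bp upstream of the start, and H3K4me3 began 42 bp away. The peak at MACC1, a regulator of the MET receptor, had a fold of 22.9 with 134 fragments and lay 260 bp from H3K4me3. Its summit was 2254 bp upstream of the start, so the peak reached the window of 1 kb only with an edge. The peak at CD300LB, an activating receptor of myeloid cells, had a fold of 18.1 with 99 fragments and lay 122 bp from H3K4me3. Further flanking peaks were at CCAR1, a co-activator of transcription (fold 13.9, 59 bp from H3K4me3), SPATA12 (12.9, 771 bp), HERC4, a ubiquitin ligase (12.3, 37 bp), and WBP1L (12.1, 159 bp). The lipid transporter ABCA3 (11.8, 235 bp), the splicing regulator TRA2B (11.7, 78 bp), the F-box protein FBXW5 (11.7, 89 bp) and LOC124906010 (11.6, 69 bp) completed them. In 9 of these 11 the summit was upstream of the nearest start. The exceptions were SPATA12 and LOC124906010.

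The other 399 peaks at starts had no H3K4me3 within 1 kb, and lay evenly about the start. The summit was downstream at 194 of them (48.6%, Wilson interval 43.8 to 53.5), within 250 bp of the start at 105 (26.3%) and at a median of 460 bp from it. The rule's window is symmetric about the start, and how far it set these values was not tested. An H3K4me3 peak over the start would lie within 1 kb of the acetyl-only peak, so the choice of this group fixed the number of covered starts at 0 of 399. H3K4me3 touched the window of 1 kb around the start at 21.

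**Figure D3:**
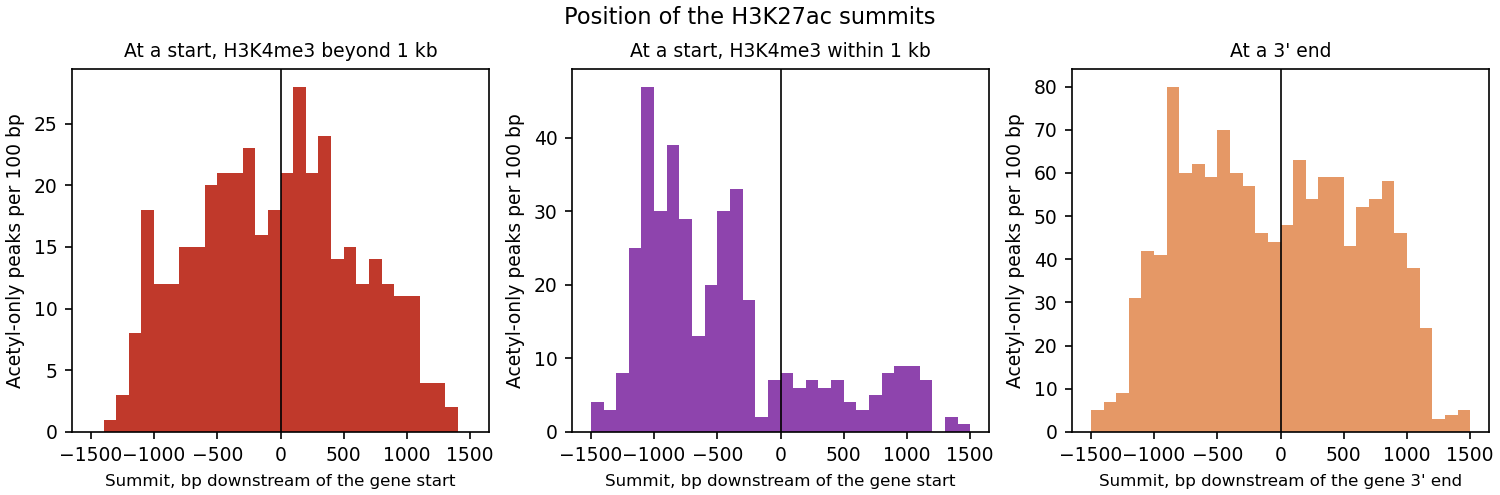
Number of acetyl-only peaks per 100 bp by the position of the summit in bp downstream of the start (left and middle) or of the 3′ end (right), each with 0 at the black line. Peaks with H3K4me3 within 1 kb (middle) lie mostly upstream, with 20.8% downstream, and the others at starts (left) lie on both sides, with 48.6% downstream; summits beyond 1500 bp (3, 9 and 17 in the panels from left to right) are not drawn.

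The 10 strongest of these isolated peaks had folds of 9.73 to 13.6. They are given here in order of fold and were chosen after the values had been seen, although 4 of them are also among the 15 strongest at any start. The peak at SPDYC, a Speedy family activator of cyclin-dependent kinases, had a fold of 13.6 with 54 fragments, and H3K4me3 was 10.0 kb away. The peak at VIPR1, the receptor for vasoactive intestinal peptide, had a fold of 12.9 and H3K4me3 11.0 kb away. That of NPBWR2, a receptor for neuropeptides B and W, had 12.4 and 3.94 kb, and that of the beta-defensin gene DEFB129 had 11.7 and 38.2 kb. At P2RY10, a G protein-coupled receptor of blood cells, 1 peak with a fold of 11.1 and 66 fragments had its summit 369 bp upstream of the start. Another with a fold of 6.14 had it 442 bp downstream, and no H3K4me3 was called within 191 kb. The rest were at VAMP5, a protein of vesicle fusion (fold 11.1, H3K4me3 1.64 kb away), APOC2, an apolipoprotein (10.6, 1.60 kb), APOBEC3H, an antiviral cytidine deaminase (10.5, 18.9 kb), LOC124905230 (9.76, 65.9 kb) and CDK3 (9.73, 1.94 kb). The APOC2 summit was 1885 bp upstream of the start. None of these 10 reached the strength of the first 3 flanking peaks.

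Promoters with acetylation alone were poor in CpG. The CpG ratio is the observed number of CpG over the number expected from the C and G of the sequence, and CpG islands are often defined by a ratio above 0.6. The 259 listed promoters (240 genes) that had an acetyl-only peak and no H3K4me3 within 1 kb of the start had a median ratio of 0.242 (interquartile range 0.158 to 0.378). Below 0.6 were 227 of them (87.6%, Wilson interval 83.1 to 91.1). The 12826 promoters with both marks and no acetyl-only peak had a median of 0.843 (0.704 to 0.954), with 15.7% below 0.6, and the 6902 with neither mark had 0.293 (0.154 to 0.543), with 78.0% below 0.6. Promoters with an acetyl-only peak beside H3K4me3 lay between, with a median of 0.672 over 369. Low CpG was not particular to the acetyl-only peaks: 276 promoters with other H3K27ac peaks and no H3K4me3 had a median of 0.267, with 91.7% below 0.6. The 1380 promoters with H3K4me3 and no H3K27ac had 0.786. The GC content overlapped more, with an interquartile range of 49.3 to 63.0% in the promoters with acetylation alone and 59.3 to 72.3% with both marks. All 3 promoters printed first above fall in the first class, with ratios of 0.185 (CDK3), 0 (LOC124905230) and 0.239 (USHBP1), as do KLF1 (0.248) and AZU1 (0.276), beside 0.953 at SLBP.

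The difference in CpG was also present among promoters of like acetylation. Where the strongest H3K27ac peak within 1 kb had a fold below 4, the median ratio was 0.241 in 98 promoters with acetylation alone (95% binomial interval of the median 0.195 to 0.290) and 0.714 in 169 with both marks (0.675 to 0.766). At a fold of 4 to 6 it was 0.229 in 104 (0.185 to 0.263) and 0.773 in 377 (0.742 to 0.803). At a fold of 6 to 10 it was 0.288 in 36 (0.212 to 0.401) and 0.766 in 703 (0.741 to 0.788). The 21 promoters with acetylation alone and a fold of 10 or more had 0.332, with an interval that ran to 0.678. The fold was that of the strongest of all H3K27ac peaks within 1 kb, which was not always an acetyl-only peak. For some of the 21 promoters the acetyl-only peak itself was weaker than a fold of 10. Starts of 1 gene can share a peak and sequence, so promoters are not independent points.

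**Figure D4:**
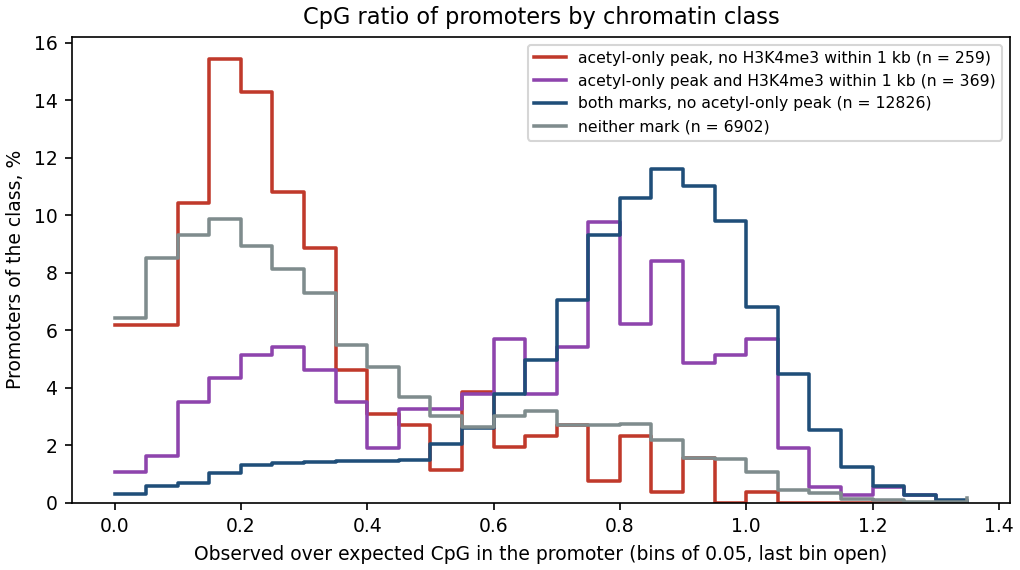
Observed over expected CpG in the 300 bases of each listed promoter (horizontal axis, bins of 0.05) as a percentage of the promoters of 4 classes. Promoters with an acetyl-only peak and no H3K4me3 within 1 kb (median 0.242) and those with neither mark (0.293) gather below 0.4, those with both marks peak near 0.85 (median 0.843), and those with an acetyl-only peak beside H3K4me3 spread over the whole range.

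Short motifs were counted in the same 300 bases on both strands, as letters and not as bound sites. TATAAA, the core of the TATA box, was present in 40 of 259 promoters with acetylation alone (15.4%, Wilson interval 11.6 to 20.3), in 5.01% with both marks, in 17.8% with neither and in 9.49% of all 22012. GGGCGG, the GC box, which holds a CpG, was in 33.6% of those with acetylation alone, 71.9% with both marks and 56.3% of all. AGATAA, bound by GATA factors, was in 11.2% with acetylation alone, 4.48% with both, 14.5% with neither and 7.90% of all. TGACTCA, bound by AP-1, was in 7.72% (5.05 to 11.6), beside 2.71% with both marks, 6.39% with neither and 4.02% of all. TGTGGT, bound by RUNX factors, was in 14.7% and 11.3% of all, GAGGAAGT, bound by PU.1, in 3.86% and 2.64% of all, and CACGTG, the E-box, in 9.65% and 8.32% of all. For the TATA, GATA and RUNX letters (RUNX 15.47%) the share in promoters with neither mark was higher than in those with acetylation alone, but inside the Wilson intervals of the latter. For AP-1 it lay within the interval given above, and for PU.1 (2.38%) within 2.11 to 6.96. For the GC box it was 26.35%, below the interval of 28.1 to 39.55. For the E-box it was 5.56%, below 6.62 to 13.9.

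Over the 240 genes of these promoters 126 had no H3K4me3 peak at an end or inside, and 114 had one elsewhere. HBD, the delta-globin gene, lay farthest from H3K4me3 (361 kb), with a weak peak of 14 fragments (fold 3.24), and it has close copies in the beta-globin cluster. At AOAH, which encodes an enzyme of myeloid cells that inactivates endotoxin, a peak with a fold of 6.51 and 35 fragments had its summit 139 bp downstream of the start, 249 kb from H3K4me3. SERPINA1, the gene of alpha-1 antitrypsin, made in liver and in myeloid cells, had a fold of 4.74 and lay 215 kb from it. These 3 were named after their values had been seen, for their distance.

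Peaks at 3′ ends lay about evenly inside and beyond the gene. The summit was inside the gene at 683 of 1300 (52.5%, Wilson interval 49.8 to 55.2) and beyond its end at 617, and 510 summits (39.2%) lay in no protein-coding gene. Here too the window is symmetric about the end, and its part in the even split was not tested. A listed start of a long non-coding RNA was within 1 kb of 24 of the 1300 peaks (1.85%), and of 35 of the 798 peaks at starts (4.39%). The genes at whose 3′ end these peaks lay mostly had a marked promoter. Both marks were at the 5′ end of 803 of 997 such genes (80.5%, 78.0 to 82.9), beside 60.7% of all 15812 genes with a listed start, and neither mark at 125 (12.5%), beside 31.2% of all. Whether acetylation at a 3′ end belongs to that gene, to a neighbour or to a distal element was not tested.

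The 10 strongest peaks at 3′ ends had folds of 11.5 to 15.9. CD300LB had 1 here as well as at its start, with a fold of 15.9 and 87 fragments over 3459 bp, 9.17 kb from H3K4me3 (chromosome 17, 74519764 to 74523222). Others were at VANGL2, a planar cell polarity protein (fold 15.5, 65 fragments), TNFSF9, the ligand of 4-1BB (15.3, 57 fragments), and IL18R1, a chain of the interleukin-18 receptor (15.2, 69 fragments, 19.5 kb from H3K4me3). LOC124900416 (12.5), STMN3, a stathmin family protein (12.1), the phosphatase gene DUSP3 (12.1, 79 bp from H3K4me3), CMTM2 (11.8), TMEM72 (11.6) and C16orf86 (11.5, 134 bp) followed. The widest acetyl-only peak, of 4646 bp, was at ANKRD13A, whose start was not listed (75 fragments). It also had the highest fold of the acetyl-only peaks with no listed start. Next after it and the CD300LB peak came AK1, an adenylate kinase (2721 bp, fold 9.22), SPATA12 (2621 bp) and POPDC2, a Popeye domain protein (2596 bp, fold 18.2).

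H3K27ac peaks were seldom alone at these sites, and the same held for the groups compared. Within 10 kb of an acetyl-only summit lay a median of 4 other H3K27ac summits (interquartile range 2 to 7), and 2552 of 2691 (94.8%) had at least 1. Away from gene ends without H3K4me3 the median was also 4, and 91.4% had at least 1. At gene ends with H3K4me3, where peaks are wider, the median was 2, and 85.8% had at least 1. A super-enhancer lay within 10 kb of 71 of them (2.64%, Wilson interval 2.10 to 3.31), beside 3.37% of the peaks away from gene ends.

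Of 13 gene lists, 5 blood lists held acetyl-only peaks in shares whose intervals lay above the share of all genes, and the intervals of the other 8, the B cell, mast cell and cytokine lists among them, included it. These are counts beside the 11.0% of all protein-coding genes, with no test, and the lists are short. Of all genes 63.2% had H3K27ac at an end, 60.4% had both marks there and 2.84% had H3K27ac and no H3K4me3 there. The share was largest for T and NK cell genes, with 13 of 31 (41.9%, Wilson interval 26.4 to 59.2), followed by granule and phagocyte genes with 12 of 34 (35.3%, 21.5 to 52.1) and erythroid and megakaryocyte genes with 10 of 38 (26.3%, 14.97 to 42.0). Immune receptor families had 15 of 62 (24.2%, 15.2 to 36.2) and haematopoietic transcription factors 9 of 40 (22.5%, 12.3 to 37.5). Mast cell and basophil genes had 3 of 18 (HPGDS, HDC and GATA2) and cytokines and chemokines 6 of 46 (13.0%). Muscle genes had 3 of 25, housekeeping genes 4 of 34, B cell genes 2 of 23, hepatocyte genes 2 of 24, keratinocyte genes 2 of 32 and neuronal genes 1 of 23.

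**Figure D5:**
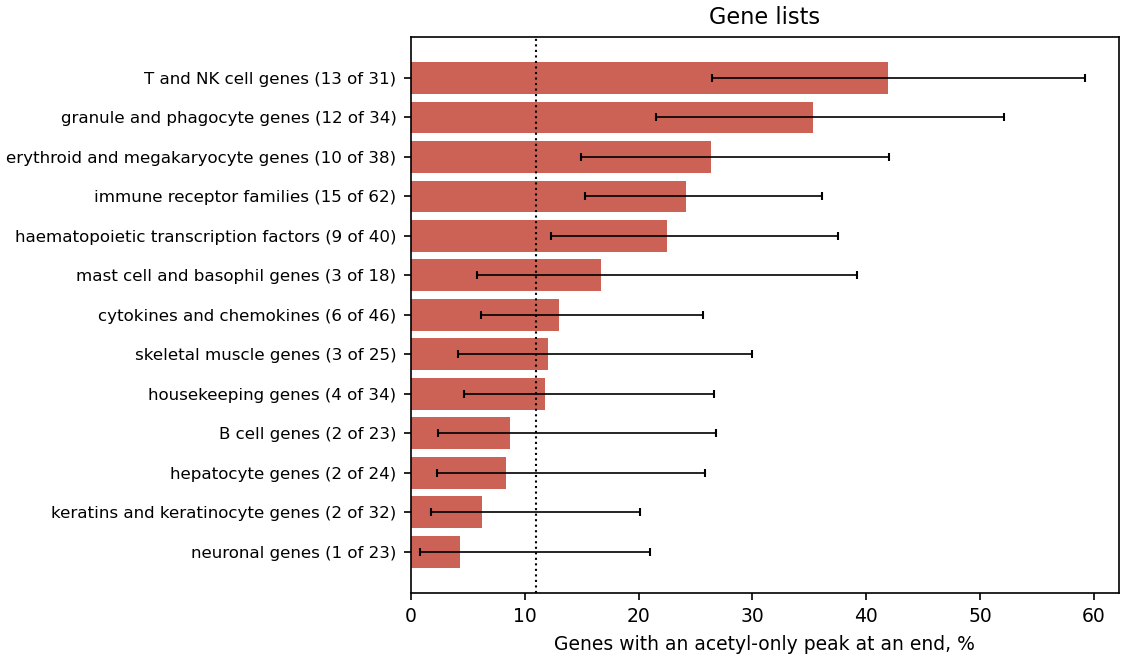
Share of the genes of each list with an acetyl-only peak at an end (bars, %), with 95% Wilson intervals, and the counts beside the names. The dotted line marks the 11.0% of all protein-coding genes, which the intervals of 5 blood lists at the top do not reach and those of the other 8 lists include.

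In the T and NK cell list the peaks lay both with and without H3K4me3 on the gene. KLRK1, the activating receptor NKG2D, had a fold of 9.74 (36 fragments) and no H3K4me3 in the gene. The peak overlaps the readthrough gene KLRC4-KLRK1 as well. CD3E, a chain of the T cell receptor complex, had 9.16 with 58 fragments, 10.6 kb from H3K4me3, CD5 had 8.95 (19.8 kb) and CD3G had 6.92 (0.728 kb). Outside the naming rule, IL7R was added after its values had been seen. It encodes the interleukin-7 receptor and had a peak on each side of its start (folds 6.06 and 3.72) and none of H3K4me3 within 67 kb. PRF1, which came before IL7R by fold (6.84), lay 98 bp from H3K4me3. KBM7 is a myeloid line, so these peaks are at genes of another lineage. Of the 31 genes 10 had both marks at an end, 6 had H3K27ac without H3K4me3 at an end, and 14 had neither.

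Among granule and phagocyte genes ITGAX, an integrin of phagocytes, had a fold of 8.42 (31 fragments), 0.182 kb from H3K4me3. A peak at the CSF1R end, which it shares with HMGXB3, had 6.84. AZU1, azurocidin, had 6.05, and CAMP, the cathelicidin gene, had 5.97 with H3K4me3 18.1 kb away. In this list 9 of the 34 genes had H3K27ac and no H3K4me3 at an end, beside 2.84% of all protein-coding genes. This was not limited to blood lists: hepatocyte genes had 5 of 24, beside 7 of 38 erythroid and megakaryocyte genes. Muscle genes had 2 of 25, keratinocyte genes 1 of 32 and neuronal genes 1 of 23. In the immune receptor list CD300LB was followed by LILRA4, a receptor of plasmacytoid dendritic cells (11.8), and by MS4A4A (8.21) and CLEC12B (6.74). LILR genes have close copies, so their values are uncertain.

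Among red cell and platelet genes TUBB1, the tubulin of platelets, had a fold of 8.28, EPOR, the erythropoietin receptor, 7.86, EPB42, protein 4.2 of the red cell membrane, 7.35, and ALAS2, the first enzyme of haem synthesis in red cells, 4.74. The ALAS2 peak lies at the end of its neighbour APEX2. TUBB1, EPB42 and ALAS2 had no H3K4me3 at an end or inside, and EPOR had it at an end. Among haematopoietic transcription factors RUNX3 had 8.09 at a start 11.2 kb from H3K4me3, GATA2 5.57 and EBF1 5.55 at the 3′ end, and KLF1 5.53 at the start. GATA2 and EBF1 also had H3K4me3 at an end, whereas KLF1 had none in the gene.

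The cytokine gene IL1B had 7.88 at its start, 112 bp from H3K4me3, CXCL16 had 7.24 and CCL5 5.79, and TNF and LTA shared a peak of 4.396. Among housekeeping genes RAB7A had a flanking peak at its start (4.95, 74 bp from H3K4me3), and RPL13A had 4.11 and EEF1A1 3.26 at the 3′ end. The GAPDH peak (4.60) also touched an end of IFFO1, whose start was not listed, so it was not placed at a start or a 3′ end. All 4 genes had H3K4me3 at an end. In the lists of other tissues the peaks were those of SERPINA1 and F2 (3.68) among hepatocyte genes, TNNI2 (7.76), TNNT3 (3.95) and TNNC1 (3.81) among muscle genes, KRT18 (5.26) and KRT2 (3.07) among keratins, and ELAVL3 (3.68) among neuronal genes. The TNNC1 peak was placed at the start of its neighbour NISCH, 308 bp from H3K4me3, and TNNC1 had H3K4me3 at an end. The B cell genes were CD79B (4.21) and VPREB3 (3.42). In the mast cell list, beside GATA2, HPGDS, the prostaglandin D synthase, had 5.40 and HDC, the enzyme that makes histamine, 4.25.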

How the data were processed

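ChIP-seq was done on H3K27ac, H3K4me3 and input, with 1 library each, in KBM7 cells; the input was not analysed here. The build was hg38 and the tools named were bedtools 2.20.1 and Bowtie2 2.3.4, per the submitters' processing notes. No source used here names the peak caller. The authors deposited 1 peak list per mark. Per peak the authors deposited the fold enrichment at the summit over their expected background, p and q on a −log10 scale, and the summit position. The deposited score is the −log10 q times 10 without its decimals, in 100% of peaks. The super-enhancer table was used for positions only. Here the summit fragments and expected background were recovered from fold and −log10 p, assuming fold = (fragments + 1)/(background + 1) and an upper Poisson tail, within 0.01 on the −log10 scale for 100% of peaks. This gave a median of 21 fragments for H3K27ac and 39 for H3K4me3; no source used here gives library totals, and few fragments make single weak peaks imprecise.

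RefSeq's gene table (GRCh38.p14) gave the gene ends, and its promoter table the starts, strands and promoter sequences (15812 of 19974 genes, 22012 starts). Overlap needed 1 bp. Shares have Wilson intervals and medians binomial intervals. Overlap and fragment functions were tested on simulated data. Python 3.11.15, pandas 2.3.3, numpy 2.4.6 and scipy 1.17.1 were used. The members, the 13 gene lists and the alternatives were chosen with earlier results of these data known. Named genes are the 15 strongest members at starts, the 10 strongest at 3′ ends, the 5 widest, those at the edges of the rule and up to 4 genes per list; others are said to be added. The strand of 4162 genes was not used here.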

Additional observations from a re-analysis of the deposited data

How the results depend on the processing

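Each of 6 results was recomputed under 8 alternatives. The low CpG ratio of promoters with acetylation alone, a median of 0.242, ran from 0.236 to 0.262 over all of them. The number of peaks (2691) was 1578 with a window of 500 bp, 5318 with 2 kb, 1773 where H3K4me3 had to be more than 1 kb away and 1431 at a −log10 q of at least 5, and the number of genes (2197) was 1355, 3924, 1397 and 1309. The share at starts (38.0%) was 34.3% with 500 bp, 51.8% with 2 kb, 35.3% with the summit in the window, 42.2% against the top 50% of H3K4me3 peaks, 29.1% with H3K4me3 more than 1 kb away and 40.2% at the stricter q. So 3′ ends were the larger class except with the window of 2 kb. The median fold (3.95) was 3.97, 3.89, 4.21 and 4.74 with 500 bp, 2 kb, the top 50% of H3K4me3 peaks and the stricter q. The median distance to H3K4me3 (2267 bp) was 2654 and 1584 bp with 500 bp and 2 kb, 4744 bp against the top 50% and 4943 bp with H3K4me3 more than 1 kb away. The other 26 of 48 values stayed within 1.5 times a count or inside the interval of the main value. No paired analysis was possible because each mark has 1 library. The median summit held 16 fragments, so weak peaks may be missing from either list.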

Other observations

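Acetyl-only peaks were spread unevenly over chromosomes. They made up 21.0% of the H3K27ac peaks at gene ends outside super-enhancers on chromosome 17 (247 of 1178, Wilson interval 18.7 to 23.4), 19.0% on chromosome 22, 18.8% on chromosome 11 and 18.7% on chromosome 19. On chromosome 4 the share was 5.69% (31 of 545, 4.04 to 7.96) and on chromosome 13 it was 7.81% (20 of 256). Per 100 protein-coding genes there were 21.1 on chromosome 17 and 4.03 on chromosome 4. The median expected background of these peaks was 5.902 on chromosome 8 and 5.01 on chromosome 15, and 2.87 to 4.30 on the others. The median fold on chromosome 8 was 3.301, the lowest of all chromosomes. Whether gene spacing or GC content plays a part was not tested.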
